A study of Homo sapiens with 13 samples.

Results

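Genes read far more in one of a pair of human cell lines than in the other were described: 27 of the 14575 genes with reads in either line. The lines differ in RNA polymerase II (Pol II), the enzyme that transcribes mRNA genes. In the pooled replicates of each line, the reads of a gene were summed and expressed as RPM, reads per M poly(A) reads, and a gene was taken if it was below 1 RPM in one line and at least 5 RPM in the other. This gave 21 genes high in wild-type cells, out of 7120 genes at 5 or more there (0.295%), and 6 genes high in R749H cells, out of 6394 (0.0938%). The genes were thus chosen by the pooled levels of both lines, so these levels are given as a description, and nothing is read from a test of them. The genes were collected as genes expressed in one line only, and the data go against that name: none of the 27 was at 0 in the pooled replicates of the low line. There, the genes high in wild-type cells held 4 to 22 reads and those high in R749H cells 4 to 28 reads.

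Poly(A) RNA came from HEK293 Flp-in T-REx cells, an established human embryonic kidney line, with an integrated pcDNA5 plasmid that encodes Rpb1, the main catalytic subunit of Pol II, made resistant to α-amanitin. The sample titles name an Avitag on Rpb1 in both groups, while the source names give B10 in its place, and this was not resolved. The wild-type group (5 replicates) had no substitution that slows Pol II, and in the R749H group (4 replicates) Rpb1 carried the R749H substitution, which slows elongation. In both groups the labels give doxycycline at 2 µg/ml for 24 hr, which induced the plasmid gene, and α-amanitin at 2.5 µg/ml for 42 hr, which blocks the Pol II made from the cells' own gene. The study's methods differ on doxycycline, which they give for fewer hours before α-amanitin and then together with it. Each group was 1 cell line, so a difference between the lines that preceded the induction cannot be told apart from one made by the substitution. The study calls the replicates biological, but the labels do not say whether they were separate cultures, so the spread between them may be technical in part.

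The 3’ READS method sequences the 3’ end of each polyadenylated molecule, so that a molecule gives one end whatever its length, and RPM can be compared between genes without division by length. A pre-mRNA is cut and polyadenylated downstream of a poly(A) signal, most often AATAAA or its variant ATTAAA, and the speed of Pol II influences which of several possible ends is used. HEK293 cells are known for a mixed character, with epithelial and neuronal transcripts. Of 6 markers of HEK293 cells, INA, VIM and LIN28B were read in every replicate of both lines, NEFL was at 0 in all of them, NEFM did not exceed 0.361 RPM and NES 2.49 RPM, and the summed level was 143 to 250 RPM in wild-type and 97.6 to 148 in R749H replicates. Of 5 epithelial markers, EPCAM was read in every replicate and KRT5 and KRT14 in none. CLDN7 held 1.90 to 2.94 RPM in the wild-type replicates and 0.0448 in pooled R749H cells. CDH1 held 0.608 RPM in pooled wild-type cells and 0 in every R749H replicate. The sum of the 5 was 28.7 to 39.8 in wild-type and 13.3 to 25.2 in R749H replicates. The sum of 4 blood markers was 45.0 to 67.7 in wild-type and 79.3 to 93.5 in R749H replicates, of which HBA1, an α-globin gene, made nearly all, while the leukocyte marker PTPRC was at 0 in all. The sum of 4 fibroblast markers did not exceed 0.791 RPM and that of 3 hepatocyte markers 3.38 RPM in any replicate. The part of these differences in the levels of the 27 genes was not tested.

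Depth was 2479851 to 10135014 reads within 5 kb of a stop codon per wild-type replicate and 3863468 to 6475987 per R749H replicate. A single read was worth 0.0889 to 0.361 RPM in a wild-type replicate and 0.137 to 0.232 in an R749H replicate, so a level below 1 rested on a handful of reads. R749H replicate 3 stood apart from the others: isoforms with just 1 read were 6.60% of its 41033 isoforms but 30.045% to 36.2% of those elsewhere. Of the 21 genes high in wild-type cells, 10 were at 0 in R749H replicate 3, against 0 to 2 in each of the other R749H replicates. With this library left out, 18 genes were high in wild-type cells, 15 of them among the 21.

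The main 3’ end is the position with most reads in the line where the gene is high. The sequence before it is shown for genes with large ratios in each direction and for LACC1, with a 7.43-fold ratio. It is also shown for PTH2, whose end is close to its stop codon, and for JSRP1, whose end lay outside the annotated exons of the gene. JSRP1 is not the only gene without AATAAA or ATTAAA before its main end. MAMSTR, SLC35E2B, VWA1, TBXA2R, MYO7A and HELZ2, whose sequences are not shown, also lack both. Each line gives the last 30 bases up to the end, on the transcribed strand of GRCh37 (hg19), with AATAAA or ATTAAA in capitals. MYOM2, with a 17.7-fold ratio, is named only.
BEND5: acaatttgcAATAAActttggatttttcat
IGSF21: ttaATTAAAacaaacagaacaattttcccc
PRX: caagccatgtgAATAAAataatctggaagt
LCN15: ttctattcAATAAAcagatgctgcagcctc
PTH2: tccccatcttAATAAAgaccatgccctgcg
ZNF22: gaaAATAAAaaatgaaatattttgtatact
SNAI1: atattcAATAAAgcagttaatttatatatt
LACC1: caaccaAATAAAaattattttgattatctg
JSRP1: cacgggccccctaacacgcacggacacccc

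The BEND5 sequence spans chr1:49193542-49193571 on the minus strand, IGSF21 chr1:18704947-18704976 on the plus strand, PRX chr19:40899676-40899705 on the minus strand, LCN15 chr9:139654087-139654116 on the minus strand, PTH2 chr19:49925683-49925712 on the minus strand, ZNF22 chr10:45500744-45500773 on the plus strand, SNAI1 chr20:48605389-48605418 on the plus strand, LACC1 chr13:44468038-44468067 on the plus strand, and JSRP1 chr19:2252074-2252103 on the minus strand. Apart from that of JSRP1, these ends lay in annotated 3’ UTR exons of the genes themselves. The 30 bases of each occur once in the genome.

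The main ends of the 27 genes were set beside those of other genes. AATAAA or ATTAAA stood in the 40 nt before the end, on the transcribed strand, in 20 of 27 genes (74.1%) and in 84.1% of the 7347 genes at 5 or more RPM in either line, and AATAAA alone in 66.7% and 67.6%. The end lay within an annotated exon of any gene on the same strand in 26 of 27 (96.3%) and in 99.0% of all such genes. It lay within 10 nt of an annotated transcript end in 77.8% and 79.3%. None of the 27 had 6 or more As in the 10 nt after the end, where priming within the transcript can occur, against 5.10% of all such genes. The median distance from the stop codon was 543 nt for the genes high in wild-type cells and 989.5 nt for those high in R749H cells, with 647 nt for all.

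ZNF22, which encodes a zinc finger protein, had the largest ratio of all 27 genes. It held 15.99, 12.03, 16.92 and 16.11 RPM in R749H replicates 1 to 4. In wild-type replicates 1 to 5 it held 1.08, 0.196, 0, 0 and 0. Every R749H replicate was thus at least 11.1 times every wild-type replicate, and the pooled level was 15.4 in R749H cells (343 reads) and 0.128 in wild-type cells (4 reads), a 120-fold ratio. Of the 4 wild-type reads, 3 came from replicate 1, and all 4 ended at the main end, 1282 nt from the stop codon, where 211 of the R749H reads ended.

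SNAI1, a transcriptional repressor best known for its part in the epithelial to mesenchymal transition, held 5.06, 5.49, 23.6 and 3.86 RPM in the R749H replicates. In the wild-type replicates it held 0, 0.784, 0, 0.710 and 0.863. The groups did not overlap, but R749H replicate 3 was far above the other three, and without it the pooled R749H level fell from 8.42 to 4.77, below the limit of 5.

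LACC1, an enzyme of purine nucleoside metabolism in macrophages, entered through 1 library. It held 16.7, 1.69, 0.231 and 1.17 RPM in the R749H replicates and 1.45, 0.196, 0.633, 1.16 and 0.690 in the wild-type replicates. The groups overlapped, since R749H replicate 3 was below 4 of the 5 wild-type replicates. Without R749H replicate 1 the pooled R749H level fell from 6.18 to 1.07.

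HELZ2, a helicase and nuclear receptor coactivator, held 2.46, 4.22, 9.97 and 6.71 RPM in the R749H replicates and 0.317 to 1.08 in the wild-type replicates, with no overlap. ZNF425, another zinc finger gene, held 3.69, 6.54, 10.7 and 2.01 in the R749H replicates. Its wild-type values were 3.61, 0.980, 0.793, 0.354 and 0.690, and wild-type replicate 1 lay above R749H replicate 4, so the groups overlapped.

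JSRP1, a protein of the junctional sarcoplasmic reticulum of muscle, held 7.65, 5.28, 3.01 and 4.36 RPM in the R749H replicates. In the wild-type replicates it held 1.81, 0.783, 0.317, 0.356 and 0.344, below every R749H value. Its main end, at chr19:2252074 on the minus strand and 254 nt from the stop codon, was the only one of the 27 outside an annotated exon of its gene, 177 nt from the nearest annotated end. It lay 2 nt from an end of AMH, which is transcribed from the opposite strand and encodes anti-Müllerian hormone. Among the 27 genes the only other with an opposite-strand end of at least 5 RPM within 100 nt was CCER2, 88 nt from an end of NFKBIB. The main AMH end held 88.4 RPM in pooled wild-type and 144 in pooled R749H cells. Ends of JSRP1 more than 12 nt from its main end held 9 wild-type and 41 R749H reads, or 0.288 and 1.84 RPM, so that without the main end the gene would not reach 5. When positions with ends of more than 1 gene, on either strand, were left out, JSRP1 no longer met the rule.

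**Figure D1:**
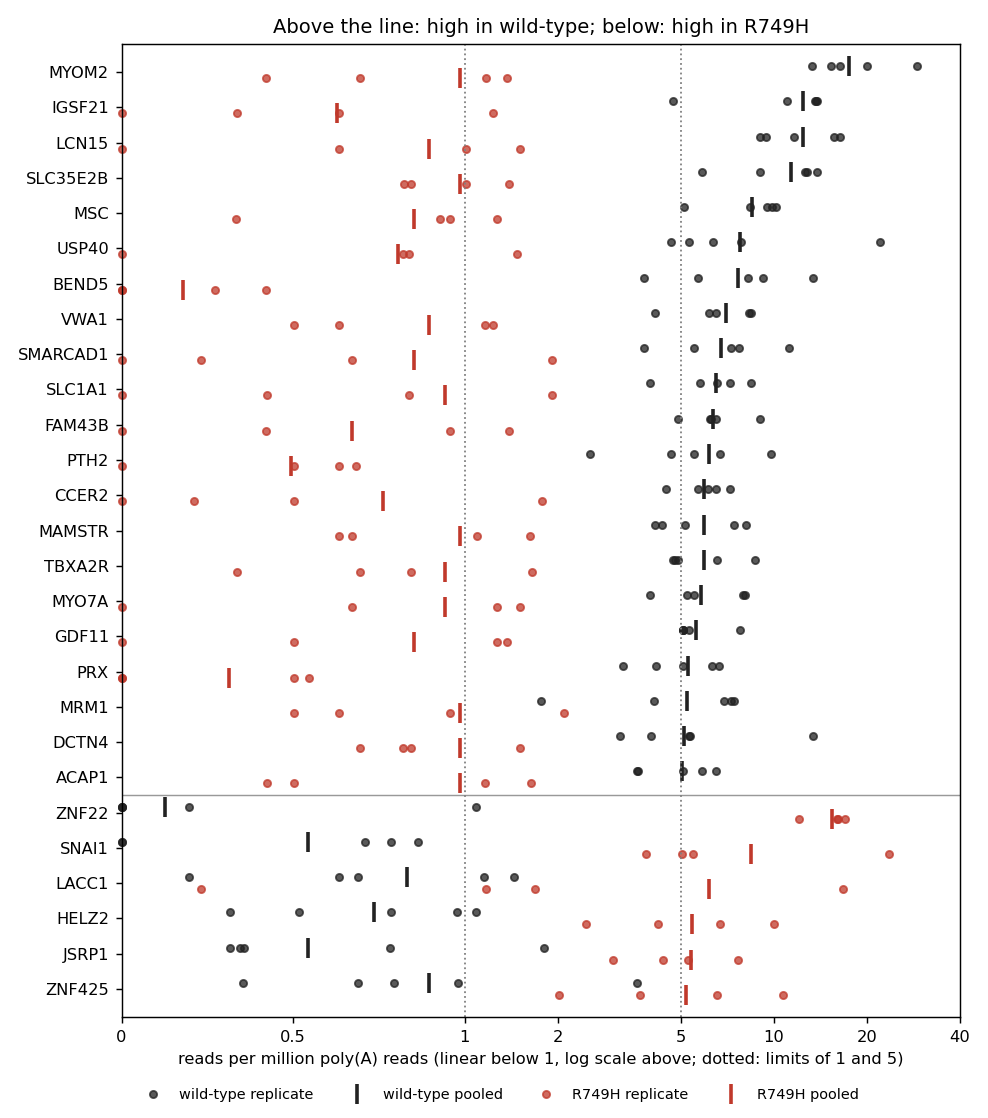
RPM (axis linear below 1 and logarithmic above) of the 27 genes in each of 5 wild-type (black) and 4 R749H (red) replicates as points, with the pooled value as a bar; dotted lines mark the limits of 1 and 5. The 21 genes above the grey line were high in wild-type cells and the 6 below it in R749H cells, and replicates of the lines overlap for MRM1, LACC1 and ZNF425.

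Among the 21 genes high in wild-type cells, 3 were below 1 RPM in every R749H replicate: BEND5, PTH2 and PRX. BEND5, which encodes a BEN domain protein, had the largest ratio, 42.7-fold. It held 13.4, 5.69, 9.18, 8.26 and 3.79 RPM in wild-type replicates 1 to 5. In R749H replicates 1 to 4 it held 0.273, 0.421, 0 and 0, that is 4 reads in all. Its end at chr1:49193542, 16 nt from the stop codon, lies also within AGBL4 on the same strand.

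PTH2, the precursor of the neuropeptide TIP39, held 2.53, 6.67, 9.82, 5.51 and 4.66 RPM in the wild-type replicates and 0.684, 0.633, 0 and 0.503 in the R749H replicates. PRX, which encodes periaxin, a protein of myelinating Schwann cells, held 3.25, 6.28, 6.65, 5.07 and 4.14 against 0.547, 0, 0 and 0.503. Both genes were on chromosome 19, and in both every wild-type replicate was above every R749H replicate, by at least 3.70-fold for PTH2 and 5.95-fold for PRX.

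The highest level was that of MYOM2, on chromosome 8, which encodes a myomesin of the sarcomeric M band. It held 28.9, 15.3, 19.9, 16.4 and 13.3 RPM in the wild-type replicates and 1.37, 0.421, 0.696 and 1.17 in the R749H replicates. The lowest wild-type value was 9.71 times the highest R749H value. MSC, also on chromosome 8 and encoding the repressor musculin, held 5.10 to 10.1 in the wild-type replicates and 0.334 to 1.27 in the R749H replicates, without overlap. MAMSTR, a coactivator of MEF2 factors, held 4.12 to 8.11 and 0.633 to 1.62.

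Genes of the cell surface and of secreted proteins were also among those high in wild-type cells. IGSF21, a synaptic adhesion protein of the immunoglobulin superfamily, held 4.70, 10.99, 13.62, 13.78 and 13.63 RPM in the wild-type replicates. In the R749H replicates it held 1.23, 0.633, 0 and 0.336, and the pooled ratio was 19.9-fold. LCN15, of the lipocalin family, held 9.02 to 16.4 in the wild-type and 0 to 1.503 in the R749H replicates. VWA1, an extracellular matrix protein, held 4.12 to 8.44 and 0.503 to 1.23. TBXA2R, the thromboxane A2 receptor, held 4.70 to 8.71 and 0.336 to 1.64. GDF11, a ligand of the TGF-β family, held 5.06, 5.30, 5.07, 5.06 and 7.76 in the wild-type replicates, of which replicate 5 stood above the others, and 1.37, 1.27, 0 and 0.503 in the R749H replicates.

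Both solute carriers were high in wild-type cells. SLC35E2B, a member of a family of nucleotide sugar transporters, held 9.04, 12.6, 13.8, 12.8 and 5.86 RPM in the wild-type replicates and 0.821, 0.844, 1.39 and 1.01 in the R749H replicates. This gene has a near-identical copy, SLC35E2A, but the 77 nt before its main end occur once in the genome. SLC1A1, a glutamate transporter, held 3.96 to 8.44 and 0 to 1.91. Neither gene overlapped between the lines.

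The remaining genes have varied functions. USP40, a ubiquitin-specific protease, held 22.1 in wild-type replicate 1 and 4.66 to 7.82 in the other wild-type replicates, against 0 to 1.48 in R749H cells. DCTN4, a dynactin subunit, held 13.4 in wild-type replicate 1, 3.17 to 5.35 in the others and 0.696 to 1.51 in R749H cells. Without wild-type replicate 1, the pooled level of USP40 was 6.39 and that of DCTN4 was 4.32, below the limit. SMARCAD1, a chromatin remodeler, held 3.80 to 11.2 and 0 to 1.91, and MYO7A, an unconventional myosin of sensory hair cells, held 3.97 to 8.04 and 0 to 1.504. MRM1, a methyltransferase of mitochondrial rRNA, held 6.87, 1.77, 7.28, 4.09 and 7.42 in the wild-type replicates and 0.956, 0.634, 2.09 and 0.503 in the R749H replicates. It was the only one of the 21 whose replicates overlapped, wild-type replicate 2 being below R749H replicate 3. The others, FAM43B, CCER2 and ACAP1, a GTPase-activating protein for ARF6, held 3.61 to 9.03 in wild-type and 0 to 1.78 in R749H replicates.

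Over all 21 genes high in wild-type cells the pooled ratio was 5.10 to 42.7-fold with a median of 7.94-fold, and over the 6 high in R749H cells it was 5.80 to 120-fold with a median of 8.65-fold. Many lay close to the limits: 9 of the 21 had 0.9 or more RPM in R749H cells, and 9 had fewer than 6 in wild-type cells. Just inside were MAMSTR (5.92 in wild-type, 0.986 in R749H cells) and ACAP1 (5.03, 0.985), and just outside were CCDC23 (5.67, 1.03) and SERPINF1 (4.995, 0.940). In the other direction ZNF425 was just inside (5.20 in R749H, 0.896 in wild-type cells), and HBEGF (6.14, 1.18) and AANAT (4.66, 0.960) were just outside.

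**Figure D2:**
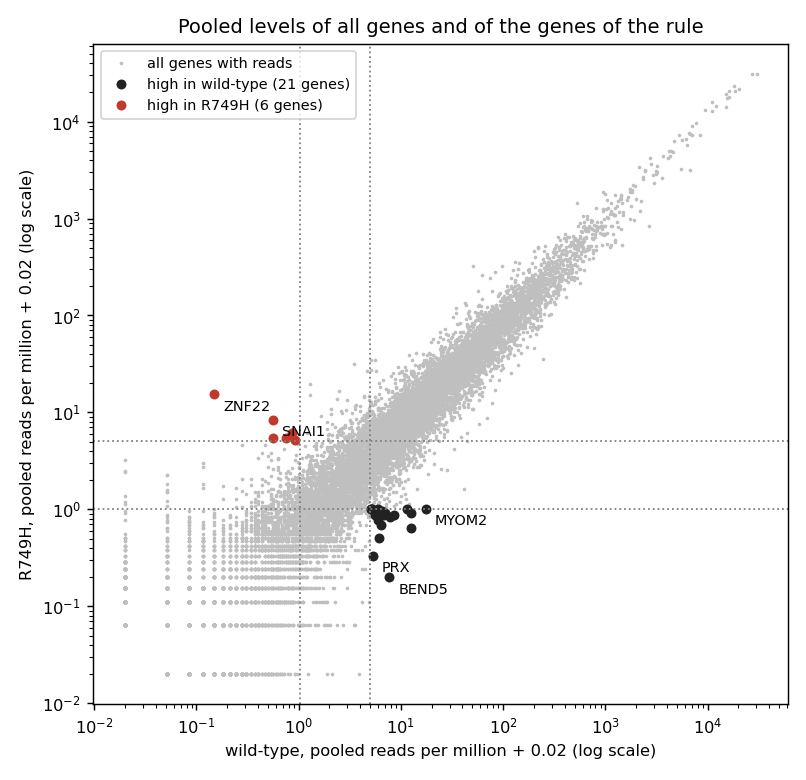
Pooled RPM plus 0.02 in wild-type (x) and R749H cells (y), both on logarithmic axes, for all genes with reads (grey), the 21 genes high in wild-type cells (black) and the 6 high in R749H cells (red); 1 gene left out by the rule is not drawn. Dotted lines mark 1 and 5, and most of the black points lie just under the line at 1 in R749H cells, while ZNF22 and BEND5 lie far from it.

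In the replicates, no gene met both limits in every library. All R749H values were below 1 for 3 of the 21 genes high in wild-type cells, and all wild-type values were at least 5 for 5 of them. For the 6 genes high in R749H cells, both numbers were 1. Replicates did not overlap for 20 of the 21 genes high in wild-type cells, where 25.7% of the 7120 genes at 5 or more in pooled wild-type cells had every wild-type replicate above every R749H replicate. They did not overlap for 4 of the 6 genes high in R749H cells, where the corresponding share of 6394 genes was 4.93%. The limma fit was made on log2 levels of all 9494 genes that passed a filter on low values. In limma, 21 of 21 and 5 of 5 were called at an adjusted p under 0.05, and LACC1 did not pass the filter. Of all genes tested, 25.1% were called, 13.8% lower and 11.3% higher in R749H cells. The replicates are those of the pooled files that chose the genes, so nothing is read from these counts.

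How many genes met the rule depended on the scaling of the lines. The values as deposited are per poly(A) read, and on that scale the median gene was lower in R749H cells by 0.39 on the log2 scale, against 0.06 with TMM factors, which scale libraries so that most genes do not change. With the lines rescaled to TMM, 8 genes were high in wild-type cells, all among the 21, and 10 were high in R749H cells, among them the 6. Per read within 5 kb of a stop codon in place of per poly(A) read, 15 genes were high in wild-type cells, of which 10 were among the 21, with MYOM2, LCN15 and SLC35E2B among the 11 lost, and 8 were high in R749H cells, among them the 6. Leaving out R749H replicate 1, the deepest R749H library, raised the number high in wild-type cells to 43, of which 19 were among the 21. Leaving out R749H replicate 3 kept 3 of the 6 genes high in R749H cells and added none. BEND5, PTH2 and PRX were also below 0.5 RPM in pooled R749H cells. PTH2 was at 0.493 there, but above 0.5 in every R749H replicate except replicate 3. ZNF22 was the only gene of the other direction below 0.5 in pooled wild-type cells or at 10 or more in pooled R749H cells.

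**Figure D3:**
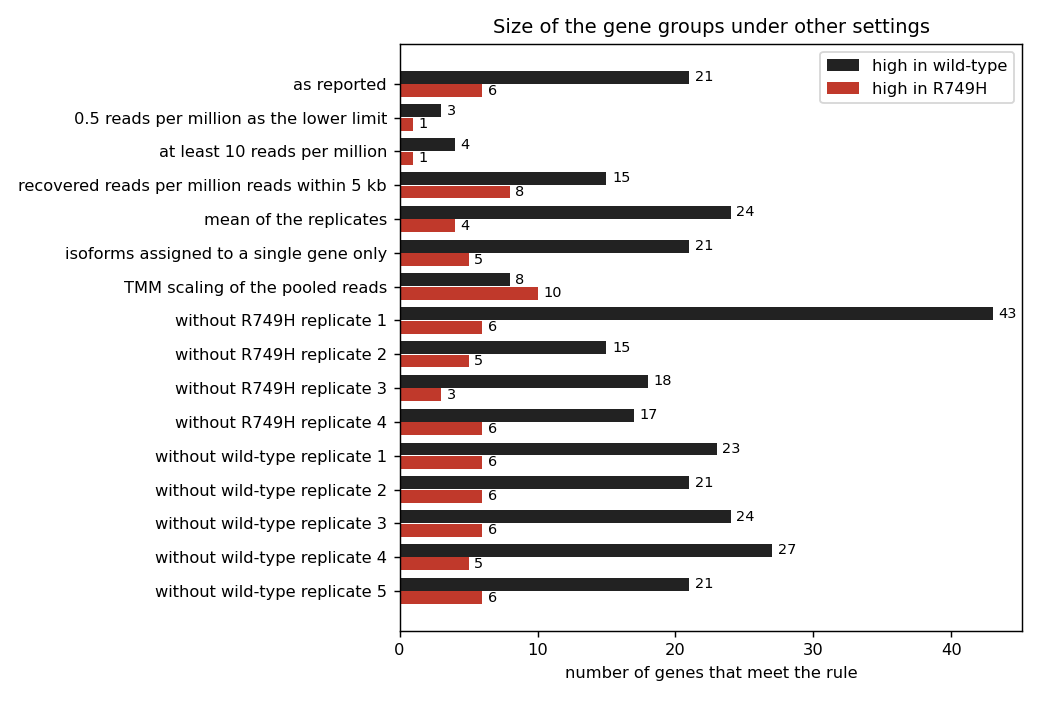
Number of genes (x) that met the rule as reported and under each other setting (y), for genes high in wild-type (black) and in R749H cells (red). The counts of 21 and 6 become 8 and 10 with TMM scaling and 43 and 6 without R749H replicate 1.

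The few reads in the low line mostly ended where the reads of the high line did. Within 12 nt of the main end lay a median of 95.8% of the wild-type reads and 95.5% of the R749H reads of the 21 genes high in wild-type cells, and 10 of these genes had all of their R749H reads there. For the 6 genes high in R749H cells the medians were 96.4% in R749H and 100% in wild-type cells. MYOM2, for example, had all 545 wild-type reads and all 22 R749H reads at this end.

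Some genes used more than 1 end. GDF11 had ends at 398 nt and 1969 nt from the stop codon, joined with positions no more than 24 nt apart. The proximal end held 102 of 175 wild-type reads (58.3%) and 17 of 19 R749H reads (89.5%). The distal end held 50 wild-type reads (28.6%) and 0 of 19 R749H reads, which allows a share of up to 15.8%, in counting error only. In TBXA2R the end nearest to the stop codon, at 55 nt, held 156 of 185 wild-type reads (84.3%) and 9 of 21 R749H reads (42.9%), and the ends at 330 and 1103 nt held the rest. SLC35E2B had 67.5% of its wild-type and 90.9% of its R749H reads at 1493 nt. The end at 2845 nt held 8.19% and 4.55%, and that at 2987 nt 15.0% and 4.55%. In R749H cells each of these distal shares is 1 read. SLC1A1 divided its reads alike in both lines, with 31.5% and 33.3% at 1702 nt and the rest at 1909 nt. With so few reads in the low line, these shares were not tested over replicates.

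**Figure D4:**
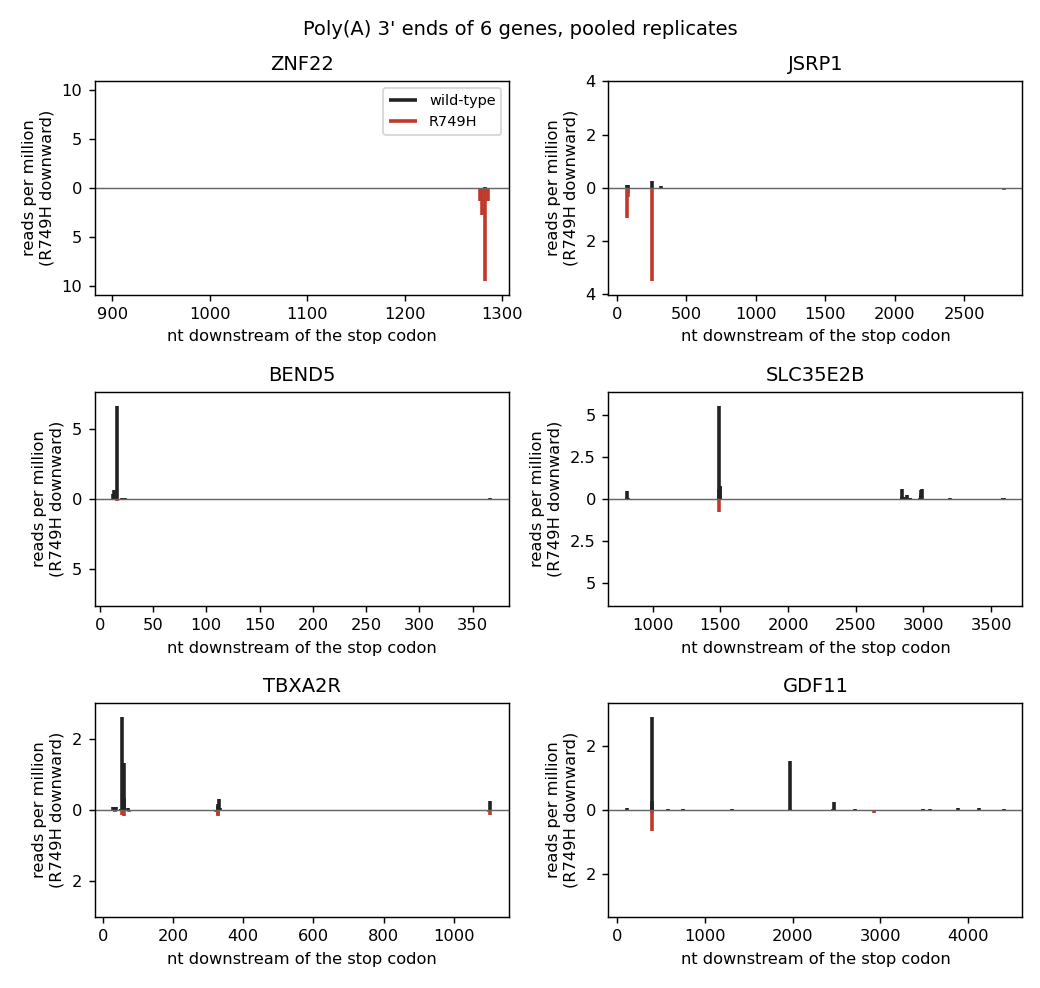
Pooled RPM (y) at each 3’ end by its distance from the stop codon in nt (x) for 6 genes, with wild-type cells upward in black and R749H cells downward in red. In GDF11 the end at 1969 nt has wild-type reads only, while in BEND5 and ZNF22 nearly all reads of both lines fall at 1 end.

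The genes were spread over the chromosomes, with 2 pairs within 1 Mb. SLC35E2B and VWA1 are 222054 bp apart on chromosome 1, and PTH2 and MAMSTR are 709201 bp apart on chromosome 19. Chromosome 1, with 740 of the 7347 genes at 5 or more RPM in either line, held 5 of the 21 genes high in wild-type cells and none of the 6. Chromosome 19, with 643, held 5 and 1, and chromosome 20, with 221, held 2 of the 6, SNAI1 and HELZ2. Whole chromosomes and regions differed between the lines: the median log2 ratio of R749H to wild-type cells was 0.51 over 258 tested genes of chromosome 20 and -0.42 over 610 of chromosome 17, where MRM1 and ACAP1 lie. Within 5 Mb of IGSF21, SLC35E2B, VWA1 and FAM43B, all toward the start of chromosome 1, the medians were -0.48, -0.37, -0.37 and -0.42. The windows of SLC35E2B and VWA1 overlap, as do those of IGSF21 and FAM43B, so these are not separate regions. Around BEND5 the median was -0.05. Among the genes high in R749H cells it was 0.39 around SNAI1, 0.09 around JSRP1 and 0.01 around HELZ2. It was 0.01 around LACC1, -0.14 around ZNF22 and -0.35 around ZNF425. The part of these regional differences in the levels of the 27 genes was not tested.

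**Figure D5:**
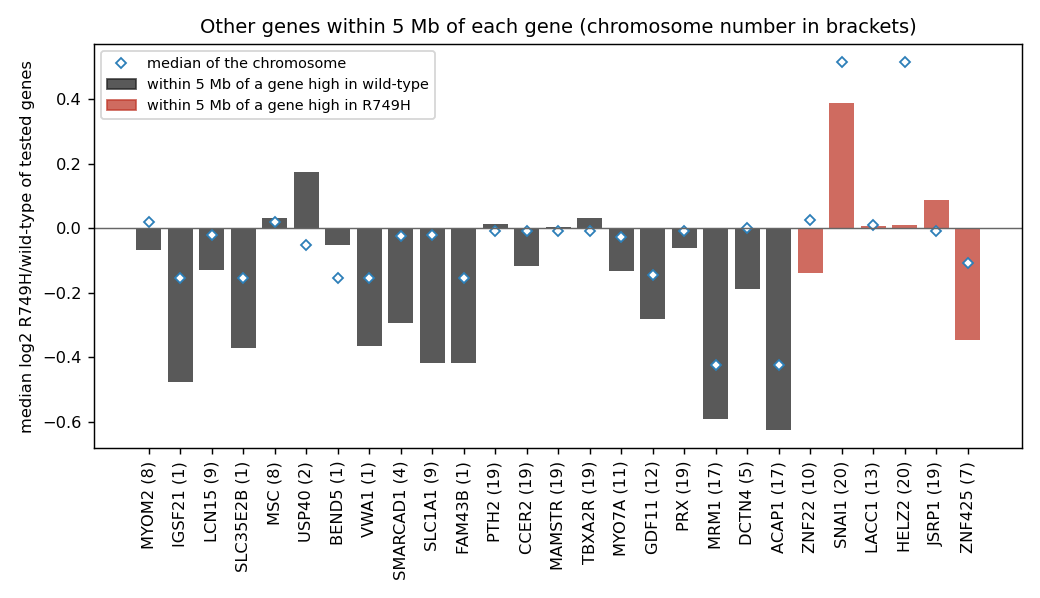
Median log2 ratio of R749H to wild-type cells (y) over the tested genes within 5 Mb of each of the 27 genes (x, with the chromosome in brackets), as bars (black for genes high in wild-type, red for genes high in R749H cells), with the median of the chromosome as a diamond. The lowest bars are those of ACAP1 (-0.62) and MRM1 (-0.59), and the highest is that of SNAI1 (0.39).

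The nearest tested gene on either side, within 500 kb, was not used by the rule and was compared with limma (5 wild-type and 4 R749H replicates). Of 34 such neighbours of genes high in wild-type cells, 6 were lower (17.6%) and 2 higher in R749H cells, against 13.8% and 11.3% of all genes. SARS2, a mitochondrial seryl-tRNA synthetase 6370 bp from CCER2, fell from 41.7 to 11.5 pooled RPM (log2 change -1.89 ± 0.33 SE, adjusted p = 0.000604 in limma). GFY, 6350 bp from PTH2, fell from 10.4 to 3.45 (log2 -1.54 ± 0.37 SE, adjusted p = 0.00627 in limma). FAM69B next to LCN15 (log2 -1.07), PINK1 next to FAM43B (-0.92), AATF next to MRM1 (-0.68) and MRPL20 next to VWA1 (-0.59) also fell. SERTAD1, a transcriptional coregulator 28870 bp from PRX, rose from 74.6 to 246 (log2 2.01 ± 0.21 SE, adjusted p = 4.18e-06 in limma), opposite to PRX. CDC37L1 next to SLC1A1 rose as well (log2 1.17).

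Of 10 neighbours of genes high in R749H cells, 4 were higher in R749H cells (40%) and 1 lower, against 11.3% and 13.8% of all genes. All 4 flanked SNAI1 or JSRP1. The lower one was next to ZNF22 and listed under a symbol that has become a date. RNF114, a ubiquitin ligase 35915 bp from SNAI1, rose from 92.6 to 172 pooled RPM (log2 1.36 ± 0.26 SE, adjusted p = 0.00118 in limma), and TMEM189-UBE2V1 on its other side rose by a log2 of 0.73. Both neighbours of JSRP1 rose: AMH from 174 to 296 (log2 1.04 ± 0.21 SE, adjusted p = 0.00194 in limma) and OAZ1, the ornithine decarboxylase antizyme, from 808 to 1285 (log2 0.96). With the authors' scaling alone, 12 neighbours of genes high in wild-type cells were lower and 1 higher. Of the neighbours of genes high in R749H cells, 2 were lower and 3 higher. Of all genes, 28.9% were lower and 4.71% higher on that scale.

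The 27 genes belonged to few of the gene families looked up, whose counts stand beside 13.8% lower and 11.3% higher in R749H cells over all genes. The zinc finger genes held ZNF22 and ZNF425, both high in R749H cells, while 36 of the 283 zinc finger genes tested were lower in R749H cells and 14 higher, with a median log2 ratio of -0.21 against -0.06 for all genes. The solute carriers held SLC35E2B and SLC1A1, with 19 of 156 lower and 16 higher and a median of -0.13. The signalling ligands and their antagonists held GDF11, with 24 of 86 lower and 4 higher and a median of -0.44.

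The other lists, which go by symbol or by named genes and do not include VWA1 or HELZ2, held none of the 27. A gene can belong to such a class without being listed. In the extracellular matrix genes 18 of 44 were lower and 1 higher (median -0.79), in the homeobox genes 23 and 5 of 84 (-0.34), in the ion channels and transmitter receptors 15 and 4 of 82 (-0.46), and in the cadherins and protocadherins 5 and 2 of 19 (-0.42). The interferon-stimulated genes had 2 of 21 lower and 7 higher (0.36), the imprinted genes 4 and 3 of 20 (0.07), and the germline and cancer-testis genes 0 and 2 of 14 (0.09). With the authors' scaling alone, on which the 27 genes were chosen, 28.9% of all genes were lower and 4.71% higher. There, 86 zinc finger genes were lower and 7 higher, 46 and 7 of the solute carriers, 39 and 3 of the ligands, 27 and 0 of the extracellular matrix genes, 36 and 1 of the homeobox genes, 33 and 4 of the ion channels and receptors, and 9 and 0 of the cadherins. The interferon-stimulated genes had 3 lower and 3 higher (median 0.04), the imprinted genes 6 and 2 (-0.26) and the germline and cancer-testis genes 0 and 0 (-0.25), so that the last 2 medians changed sign.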

How the data were processed

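The authors trimmed 3’ READS reads, truncated them to at most 77 nt, mapped them to hg19 without mismatches in the first 30 nt and kept reads with non-templated As. The study's methods name bowtie for these reads, and the submitters' processing notes Bowtie2 2.3.2. Each deposited signal value is the number of reads of an isoform, within 5 kb downstream of a CCDS stop codon, after the authors scaled every replicate to 7 M and every pooled line to 25 M poly(A) reads. RPM are the pooled sum per gene divided by 25, or the replicate sum divided by 7. Whole reads were recovered from the step of each library (100.0% of low values were within 0.1 of a whole number), and the pooled reads equalled the summed replicates at all 176030 wild-type and 134734 R749H isoforms. Isoforms assigned to more than 1 gene count for each.

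Because the values are scaled, genes were tested with limma 3.58.1 on log2 recovered reads per M recovered reads of the filtered genes. The settings were TMM factors, a prior count of 2, filterByExpr and a Benjamini-Hochberg adjusted p under 0.05. edgeR 4.0.16 and DESeq2 1.42.0 were alternatives on the same recovered reads, and the fit was tested on simulated data. Ends were annotated with GENCODE on GRCh37, the build of the files. Other settings were the limits, the scaling, the mean of replicates, positions with ends of a single gene, the reach of neighbours and each library left out. TMM scaling of the pooled lines, the fit of 8 libraries without a block, and other scalings for neighbours were added after seeing the data. The rule, the 27 genes and the lists were chosen with earlier results of these data known. Named are the 12 genes highest in each direction, pairs within 1 Mb, list members, genes nearest to the limits, called neighbours, and, outside this rule, the remaining genes of the 27. The genes CCDC23, SERPINF1, HBEGF and AANAT are the nearest outside the limits. Some items are not reported here. The 4 eNETseq samples are not analysed here.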

Additional observations from a re-analysis of the deposited data

Results flagged for a closer look

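In 54 groups of replicates (27 genes in each line), 1 replicate was far from the others in 7. Chance flags about 1 in 20 groups, but the genes were chosen by these values, so nothing is read from the number. Wild-type replicate 1, the shallowest library, was high in 4 of these: 22.1 RPM for USP40 (4.66 to 7.82 in the others), 13.4 for DCTN4 (3.17 to 5.35), 3.61 for ZNF425 (0.354 to 0.980) and 1.08 for ZNF22 (0 to 0.196). These rest on 61, 37, 10 and 3 reads. Wild-type replicate 5 was high for GDF11, at 7.76 against 5.06 to 5.30. R749H replicate 3 held 23.6 RPM of SNAI1 against 3.86 to 5.49 (102 reads), and R749H replicate 1 held 16.7 of LACC1 against 0.231 to 1.69 (122 reads). Without these libraries the pooled levels of SNAI1 and LACC1 were 4.77 and 1.07, below the limit of 5, and that of DCTN4 was 4.32.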

How the results depend on the processing

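The number of genes high in wild-type cells, 21 as reported, was 3 with a lower limit of 0.5, 4 with at least 10 RPM, 8 with TMM scaling and 15 to 43 with single libraries left out (43 without R749H replicate 1). For genes high in R749H cells, 6 as reported, these were 1, 1, 10 and 3 to 6 (3 without R749H replicate 3). The other settings gave 15 to 24 and 4 to 8 genes, of which at least 10 and 4 were among those reported. Between 24 and 25 of the 27 genes had replicates without overlap in every setting tried. Over all genes at 5 or more RPM, the share as reported was 25.7% of 7120 in the wild-type direction. In the R749H direction it was 4.93% of 6394. The pooled sums of these replicates chose the genes, so nothing is read from the count.

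With limma, 2380 genes were called and 1637 to 2750 without single libraries. With the authors' scaling alone, 3180 were called, 2734 lower and 446 higher, against 1309 and 1071. Replicate numbers did not pair the samples (correlations of deviations of -0.08, 0.05, 0.01 and -0.06), and a replicate block for replicates 1 to 4 gave 2226 calls, against 2327 for these 8 libraries without it.

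Of the neighbours of genes high in wild-type cells, 6 were lower and 2 higher in R749H cells. With the authors' scaling these were 12 and 1, DESeq2 and the replicate block each gave 4 higher, and libraries left out gave 5 to 8 lower and 1 to 4 higher. For genes high in R749H cells, 4 were higher (4 to 5 without single libraries). With the authors' scaling this was 3, and with the replicate block 5. The number lower was 1, and 2 with the authors' scaling, the replicate block or a reach of 1000 kb. It was 0 within 200 kb, and 0 to 2 without single libraries. The causes were not tested. The share of the main ends with AATAAA or ATTAAA was 74.1% in every window tried, and that with AATAAA alone was 66.7%. Levels below 1 rest on few reads, which limits every ratio given.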
